A study of Mus musculus with 27 samples.

Results

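Gene deserts are long stretches of the genome without genes, and a part of the enhancers of developmental genes lies in them, far from the promoters they act on. Active and primed enhancers carry mono- and dimethylated lysine 4 of histone H3 (H3K4me1 and H3K4me2), whereas trimethylation (H3K4me3) marks mainly promoters. KMT2D is a methyltransferase that places H3K4 methylation and is known for its part in enhancer activation during development. The regions described here were the H3K4-methylated regions of embryonic mouse hearts that lay in gene deserts. The question was how often they were listed with lower H3K4me1 or H3K4me2 when *Kmt2d* was deleted in heart muscle.

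ChIP-Seq was performed on C57BL/6 hearts at E11.5. Control hearts were Tnnt2::Cre;Kmt2d fl/+;mTmG/+ and thus already had 1 floxed *Kmt2d* allele recombined in the myocardium, and mutant hearts were Tnnt2::Cre;Kmt2d fl/fl;mTmG/+. Both carried the Cre transgene and the mTmG reporter. Hearts of each genotype were combined into 3 pools of 30, and every pool served as input and for 3 immunoprecipitations, 1 per H3K4 methylation state. Tnnt2::Cre acts in cardiomyocytes, while whole hearts also hold endocardial, epicardial and cushion cells that keep *Kmt2d*. A smaller change in every cardiomyocyte and a larger change in a part of the cells cannot be told apart in such pools. The series held 27 libraries in 9 groups of 3. KMT2D ChIP-Exo libraries and H3K4me3 changes were not analysed here.

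Desert regions were selected on width and position. A region of the authors' merged H3K4me1, H3K4me2 or H3K4me3 peak list was included when it was at least 1000 and under 8000 bp wide, overlapped no gene of GENCODE vM1 on NCBIM37 (mm9) and lay more than 50 kb from every annotated transcription start site (TSS). Of 358833 merged regions, 80022 were in this width range and 9719 met the whole rule. The merged list does not say which of these marks a region carried. Each share below is therefore out of all regions of a class, whether or not they carried the mark scored. The readout was whether a region stood, with identical boundaries, in the authors' list of regions with lower H3K4me1 or lower H3K4me2 in mutant hearts. These lists hold positions only, with no read count, fold change or *P* value, so the depth behind each region is unknown. No value per pool could be formed, no difference could be set against the spread between pools, and no test was run. Intervals are 95% Wilson intervals. They cover counting error only and treat neighbouring regions as independent, which they are not.

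The label "gene desert" held only in part. The median distance from the nearest TSS was 101 kb and the largest was 979 kb, but 142 regions (1.46%) lay within 5 kb of a gene body, on the side away from any start. The deserts, taken as intervals between neighbouring coding genes, had a median length of 272 kb, and 156 of 1711 were shorter than 100 kb. RefSeq, a later annotation, was also compared by matching the promoter sequence of each of its gene starts to NCBIM37. Of the 9159 desert regions outside chromosomes 18 and Y, which were not analysed for this, 4487 (49.0%) lay within 50 kb of a RefSeq start and 368 (4.02%) held one. Of these 368 regions, 340 held the start of a long non-coding RNA and 28 that of a protein-coding gene.

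The sequences below are shown for the 2 desert regions that stood in both lists and for the widest listed region of 4 deserts with several listed regions. Each is the central 300 bases of its region on the + strand of NCBIM37. Capitals mark matches, on either strand, to 8 motifs of factors active in the heart. They are chr15:36304646-36304945 between *Rpl7a-ps3* and *Ankrd46*, chr15:73807856-73808155 between *Gm6569* and *Gm7935*, chr12:84767326-84767625 between *Dpf3* and *Dcaf4*, chr12:29821766-29822065 between *Tssc1* and *Myt1l*, chr12:113582386-113582685 between *Kif26a* and *A730018C14Rik*, and chr17:9957356-9957655 between *Pabpc6* and *Qk*.
Rpl7a-ps3 to Ankrd46, both lists: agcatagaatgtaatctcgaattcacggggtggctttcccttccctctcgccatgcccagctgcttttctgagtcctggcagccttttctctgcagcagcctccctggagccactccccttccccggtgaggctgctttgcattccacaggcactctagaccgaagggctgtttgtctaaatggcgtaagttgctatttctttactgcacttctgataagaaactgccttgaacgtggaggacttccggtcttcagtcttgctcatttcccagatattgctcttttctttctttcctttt
Gm6569 to Gm7935, both lists: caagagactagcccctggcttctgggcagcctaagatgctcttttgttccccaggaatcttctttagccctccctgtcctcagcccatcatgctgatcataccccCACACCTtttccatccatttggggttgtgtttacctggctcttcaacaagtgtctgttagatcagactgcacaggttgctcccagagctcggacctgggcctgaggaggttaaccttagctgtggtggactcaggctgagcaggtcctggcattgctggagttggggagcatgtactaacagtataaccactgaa
Dpf3 to Dcaf4, H3K4me1 list: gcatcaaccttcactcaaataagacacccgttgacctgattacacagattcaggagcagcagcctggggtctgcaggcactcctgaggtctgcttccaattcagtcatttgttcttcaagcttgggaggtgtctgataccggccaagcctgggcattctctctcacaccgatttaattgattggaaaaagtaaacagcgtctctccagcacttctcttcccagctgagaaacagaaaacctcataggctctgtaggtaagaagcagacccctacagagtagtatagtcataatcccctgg
Tssc1 to Myt1l, H3K4me1 list: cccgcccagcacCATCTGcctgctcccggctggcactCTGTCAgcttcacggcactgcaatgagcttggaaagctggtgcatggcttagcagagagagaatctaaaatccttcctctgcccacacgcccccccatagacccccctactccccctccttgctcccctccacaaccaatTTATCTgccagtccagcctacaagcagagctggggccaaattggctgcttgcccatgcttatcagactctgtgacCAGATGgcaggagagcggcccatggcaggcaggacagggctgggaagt
Kif26a to A730018C14Rik, H3K4me1 list: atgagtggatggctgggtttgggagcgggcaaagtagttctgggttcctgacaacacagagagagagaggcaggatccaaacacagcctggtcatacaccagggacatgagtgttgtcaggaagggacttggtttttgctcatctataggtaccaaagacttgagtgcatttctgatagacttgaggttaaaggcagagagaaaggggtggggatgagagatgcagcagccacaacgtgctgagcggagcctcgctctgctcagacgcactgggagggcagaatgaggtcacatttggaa
Pabpc6 to Qk, H3K4me2 list: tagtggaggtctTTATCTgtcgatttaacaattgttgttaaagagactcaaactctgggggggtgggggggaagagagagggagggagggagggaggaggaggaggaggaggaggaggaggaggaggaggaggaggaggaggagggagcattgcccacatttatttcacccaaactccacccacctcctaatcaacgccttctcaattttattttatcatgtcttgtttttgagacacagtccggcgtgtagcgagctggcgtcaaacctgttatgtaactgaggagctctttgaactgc

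Few desert regions were in either decreased list. The list of decreased H3K4me1 held 106 of 9719 desert regions, or 1.09% (0.903% to 1.32%), and the list of decreased H3K4me2 held 102, or 1.05% (0.865% to 1.27%). Over all merged regions, 0.761% were in the H3K4me1 list and 1.87% in the H3K4me2 list. Over all merged regions of that width range, the shares were 1.91% and 5.32%. The desert shares were thus below the same-width background for both marks, and further below it for H3K4me2. Only 2 regions were in both lists, 104 were in the H3K4me1 list alone and 100 in the H3K4me2 list alone, leaving 9513 in neither.

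Other regions outside exons gave a different balance of the marks. Intergenic regions 5 to 50 kb from a TSS (n = 14375) were listed for H3K4me1 in 1.69% and for H3K4me2 in 2.29% of cases. Intronic regions over 5 kb from a TSS (n = 23274) were listed in 2.42% and 0.971%. For H3K4me1 the desert interval lay below those of both other classes. For H3K4me2 the desert share lay below that of the nearer intergenic regions and close to that of introns. Regions holding a TSS (n = 15198) were listed for H3K4me2 in 22.0% of cases and for H3K4me1 in 1.14%.

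Wide desert regions were listed more often than narrow ones, as were wide merged regions in general. For H3K4me1 the share was 0.675% at 1000 to under 2000 bp (44 of 6517), 1.66% at 2000 to under 4000 bp (43 of 2598) and 3.15% at 4000 to under 8000 bp (19 of 604). For H3K4me2 it was 0.798%, 1.27% and 2.81% in the same classes. Over all merged regions of these widths the shares were 1.10%, 2.47% and 3.75% for H3K4me1. For H3K4me2 they were 1.40%, 7.11% and 16.4%. The median width was 2330 bp for desert regions in the H3K4me1 list, 1950 bp for those in the H3K4me2 list and 1580 bp in neither. The shares at matched widths were set beside each other. At the listing rates of intergenic regions 5 to 50 kb from a TSS, taken within 10 width bins, 1.61% of desert regions would have been in the H3K4me1 list and 2.16% in the H3K4me2 list. At the rates of distal introns the values were 2.09% and 0.874%. At those of all other classes together they were 1.66% and 4.03%.

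**Figure D1:**
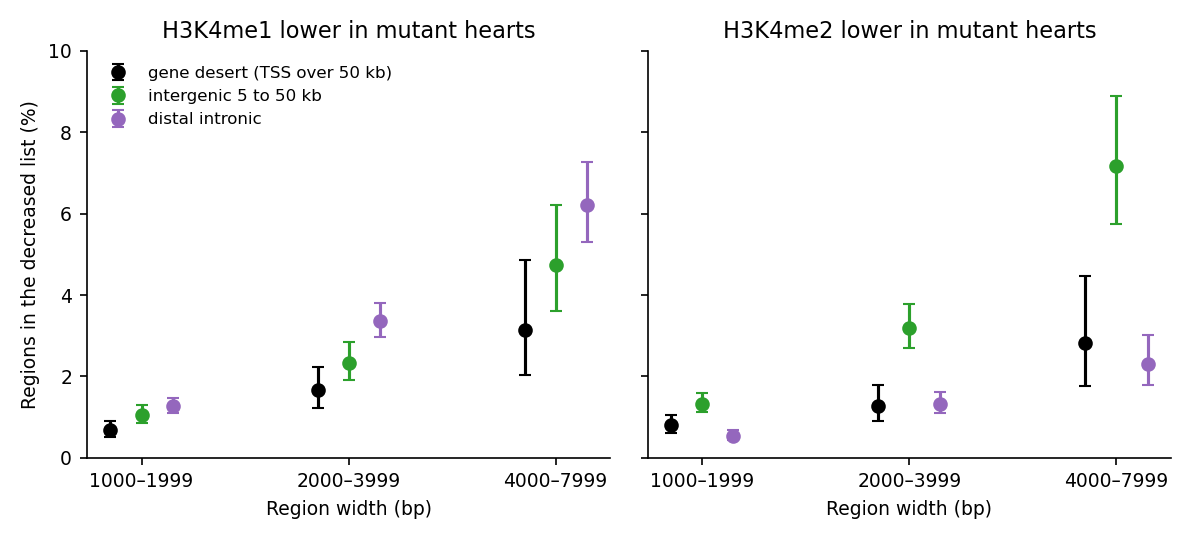
Share of regions in each decreased list (y axis, percent) by region width (x axis, bp) for desert regions (black), intergenic regions 5 to 50 kb from a TSS (green) and intronic regions over 5 kb from a TSS (purple), with 95% Wilson intervals. Shares of every class shown climb with width in both panels. The desert point shares are below those of the nearer intergenic regions in every width class. The intervals of desert and nearer intergenic regions overlap in every width class for H3K4me1 and in none for H3K4me2.

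The point shares also became smaller with distance from the nearest TSS up to 500 kb. Between 50 and 100 kb, 62 of 4820 regions (1.29%, interval 1.00% to 1.65%) were in the H3K4me1 list and 61 (1.27%) in the H3K4me2 list. Between 100 and 200 kb, 34 and 30 of 3293 regions were listed (1.03% and 0.911%). Between 200 and 500 kb, each list held 10 of 1511 regions (0.662%, 0.360% to 1.21%). Beyond 500 kb, 0 of 95 regions were in the H3K4me1 list, where the interval reaches 3.89%, and 1 was in the H3K4me2 list. Intervals of neighbouring distance classes overlapped. Median width also became smaller along these classes, from 1620 to 1580, 1500 and 1420 bp, and its part in the trend was not tested. At the 50 kb limit itself, 9 and 14 of 849 regions at 45 to 50 kb were listed for H3K4me1 and H3K4me2, and 13 and 8 of 701 at 50 to 55 kb.

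**Figure D2:**
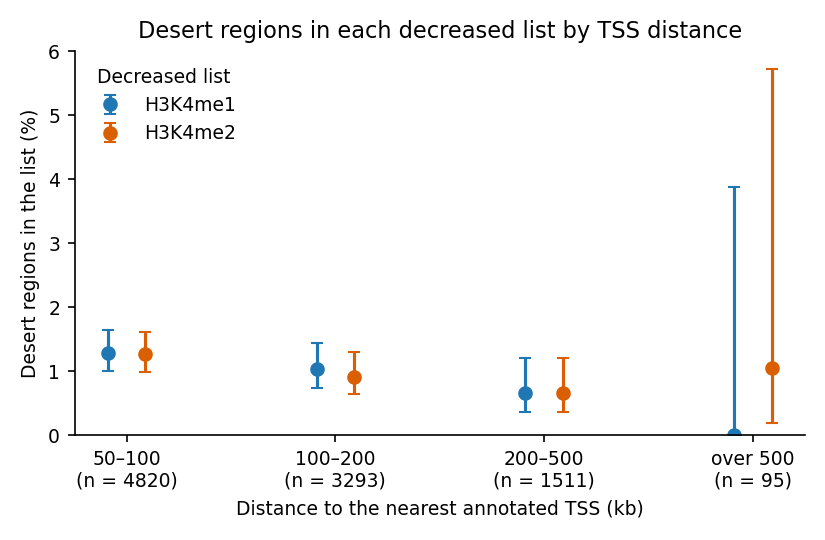
Share of desert regions in the H3K4me1 (blue) and H3K4me2 (orange) decreased lists (y axis, percent) by distance to the nearest annotated TSS (x axis, kb), with 95% Wilson intervals and the number of regions in each class. The shares were 1.29% and 1.27% at 50 to 100 kb and 0.662% for both marks at 200 to 500 kb.

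At the width limits, 4 of 1327 desert regions of 900 to under 1000 bp were in the H3K4me1 list and 5 in the H3K4me2 list, against 6 and 8 of 1130 at 1000 to under 1100 bp. At the upper end, each list held 2 of 45 regions of 7000 to under 8000 bp. It held 0 of 24 regions of 8000 to under 9000 bp, where the interval reaches 13.8%. Of all 64 desert regions of 8000 bp or more, 3 were in the H3K4me1 list (4.69%) and 4 in the H3K4me2 list (6.25%).

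Deserts were sparsely marked. Without assembly gaps, this sequence covered 719.9 Mb, or 28.1% of the genome. It held 13.5 regions of that width range per Mb, against 22.7 in intergenic sequence 5 to 50 kb from a TSS and 31.3 over the genome. Desert regions spanned 2.65% of desert sequence. Per 100 Mb, deserts held 14.7 regions with decreased H3K4me1 and 14.2 with decreased H3K4me2, against 38.4 and 52.1 in the nearer intergenic sequence. Before the width limits were applied, 71539 merged regions lay in deserts, with a median width of 160 bp. The nearer intergenic sequence then held 78238, with a median of 260 bp. Within the limits the counts were 9719 and 14375.

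Desert regions in the H3K4me2 list were richer in CpG dinucleotides than the others. CpG-rich sequence is typical of promoters. The mean was 1.76 CpG per 100 bp (SD 1.22, n = 102) in the H3K4me2 list, 1.22 (SD 0.521, n = 106) in the H3K4me1 list and 1.13 (SD 0.659, n = 9513) in neither. A CpG-rich stretch, defined as 500 bases with at least 55% G+C and an observed to expected CpG ratio of at least 0.65, was present in 13 of 102 regions in the H3K4me2 list (12.7%, 7.60% to 20.6%). It was present in 1 of 106 regions in the H3K4me1 list (0.943%, 0.167% to 5.15%) and in 117 of 9513 in neither (1.23%). This held within width classes, since at 1000 to under 2000 bp the share was 13.5% (7 of 52) in the H3K4me2 list and 0.810% in neither. Read the other way, 9.92% of the 131 CpG-rich desert regions were in the H3K4me2 list, against 0.928% of the other 9588. For comparison, 67.5% of regions holding a TSS contained such a stretch, as did 3.51% of intergenic regions 5 to 50 kb away. G+C content was highest in the H3K4me1 list (mean 48.3%, SD 3.56), against 46.4% (SD 4.88) in the H3K4me2 list and 44.9% (SD 4.23) in neither.

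One CpG-rich region was the sole desert region between *Tbx3* and *Tbx5*, which encode T-box factors of the conduction system and of the atria and left ventricle. It lay at chr5:120198266-120199465, was 1200 bp wide, and was in the H3K4me2 list. Its 300 bases with the most CpG (chr5:120198665-120198964, + strand) held 19 CpG, in capitals, and were chosen for display after the values were seen.
Tbx3 to Tbx5, H3K4me2 list: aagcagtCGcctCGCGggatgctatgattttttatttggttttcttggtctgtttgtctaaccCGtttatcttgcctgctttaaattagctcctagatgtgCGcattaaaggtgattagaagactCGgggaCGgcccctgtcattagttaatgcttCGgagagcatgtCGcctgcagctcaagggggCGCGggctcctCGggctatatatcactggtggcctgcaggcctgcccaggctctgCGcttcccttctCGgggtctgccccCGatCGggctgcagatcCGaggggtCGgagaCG

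Listed desert regions also held a RefSeq gene start more often than the rest. A start lay inside 10 of 100 regions in the H3K4me1 list (10%, 5.52% to 17.4%), 12 of 99 in the H3K4me2 list (12.1%, 7.07% to 20.001%) and 347 of 8962 in neither (3.87%, 3.49% to 4.29%). All 10 starts in H3K4me1-list regions belonged to long non-coding RNAs, as did 11 of 12 in the H3K4me2 list, the exception being *Gm5165*. Only 3 of the 13 CpG-rich regions in the H3K4me2 list held such a start, those of *6430573P05Rik*, *Gm44689* and *Gm34507*. Regions with a start inside were wider, with a median of 2280 bp against 1520 bp for regions over 50 kb from any RefSeq start. At 2000 to under 4000 bp, 6 and 5 of 149 regions with a start inside were in the H3K4me1 and H3K4me2 lists (4.03% and 3.36%). Of the 1137 regions of that width over 50 kb from a RefSeq start, 16 and 10 were (1.41% and 0.880%). At 1000 to under 2000 bp, 1 and 3 of 148 regions with a start inside were listed (0.676% and 2.03%). The shares over 50 kb away were 0.483% and 0.876%. At 4000 to under 8000 bp the shares were 4.23% and 5.63% with a start inside, against 3.125% and 1.34%. In each width class the intervals of these shares overlapped. Over all widths, the 4672 regions farthest from RefSeq starts were listed in 0.835% and 0.899% of cases.

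**Figure D3:**
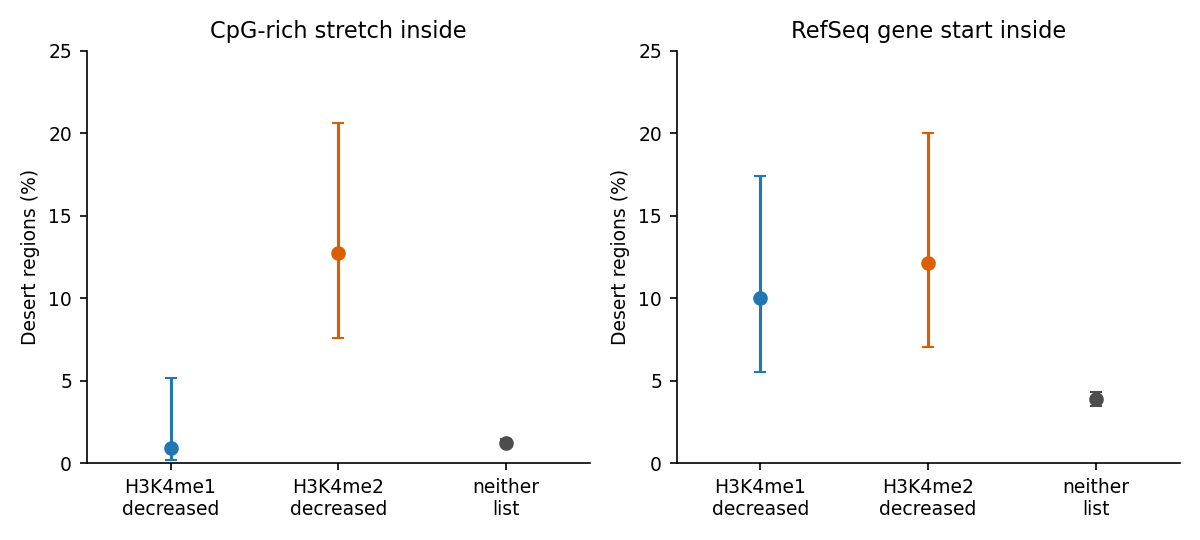
Share of desert regions (y axis, percent) that held a CpG-rich stretch (left) or a RefSeq gene start (right), for regions in the H3K4me1 decreased list, the H3K4me2 decreased list and neither, with 95% Wilson intervals. CpG-rich stretches were present in 12.7% of the H3K4me2 list against 0.943% of the H3K4me1 list, and gene starts in 12.1% and 10%.

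The 2 regions in both lists were on chromosome 15. The first, chr15:36303006-36306585, was 3580 bp wide and lay 64.3 kb from *Rpl7a-ps3* and 101 kb from *Ankrd46*. It held the RefSeq start of *Gm34150*, a long non-coding RNA. The promoter of that gene, matched to chr15:36303857-36304156 on the + strand, is given with its first 50 transcribed bases in capitals, because it places a transcript start inside a region of both lists.
Gm34150 promoter: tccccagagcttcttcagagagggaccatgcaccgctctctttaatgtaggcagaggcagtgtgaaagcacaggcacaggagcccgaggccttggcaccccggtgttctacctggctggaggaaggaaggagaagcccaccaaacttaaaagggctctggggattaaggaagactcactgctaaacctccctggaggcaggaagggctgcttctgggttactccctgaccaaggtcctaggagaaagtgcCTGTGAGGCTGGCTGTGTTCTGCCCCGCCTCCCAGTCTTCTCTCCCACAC
The second, chr15:73807446-73808565, was 1120 bp wide, lay in a desert of 240.1 kb with 3 regions, and was 103 kb from the nearest TSS.

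The 9719 regions fell into 1711 deserts. A desert held 1 region in 465 cases, 10 or more in 275 and at most 66. In 175 deserts (10.2%) at least 1 region was in a decreased list, and 149 of these had exactly 1 list entry. Entries of both lists were present in 12 deserts. The percentage of regions in either list showed no steady change with the number of regions per desert, at 2.80% for deserts of 1 region, 1.94% for 2 to 4, 2.28% for 5 to 9, 2.37% for 10 to 19 and 1.73% for 20 or more.

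**Figure D4:**
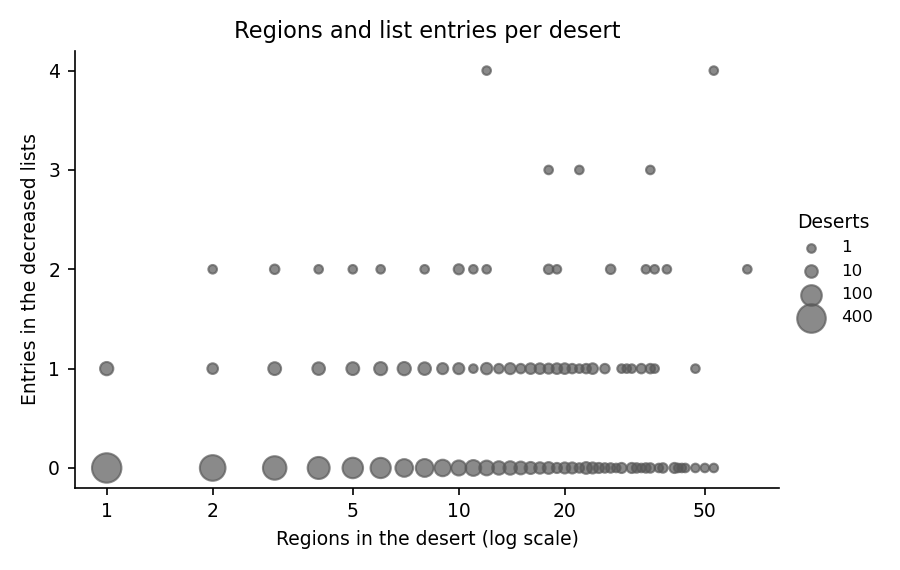
Number of entries in the decreased lists (y axis) against the number of desert regions (x axis, log scale) for the 1711 deserts, with point size for the number of deserts. The desert with 66 regions had 2 entries, and of the deserts with 4 entries one held 12 regions and the other 53.

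In the 10 deserts with the most regions, 7 of 486 regions (1.44%) were in either list, against 2.12% of all desert regions. The desert between *Cd83* and *Jarid2* (926.3 kb) held the most regions, 66, of which 2 were in the H3K4me1 list. *Jarid2* encodes a cofactor of Polycomb repressive complex and is needed for heart development. *Rps24* to *Zmiz1* held 53 regions and *Slc4a3* to *Epha4* held 50, with none in either list. *Agtr1b* to *Tbl1xr1* (47), *Zfp608* to *Gramd3* (44), *Id2* to *Rnf144a* (43), *Prickle1* to *Adamts20* (42) and *Prok2* to *Rybp* (41) likewise had none listed. *Serp2* to *9030625A04Rik* had 1 of 47 in the H3K4me2 list. *Gm5507* to *Zfp608*, on chromosome 18, had 53 regions with 2 in each list.

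The desert with the most H3K4me1-list regions lay between *Dpf3* and *Dcaf4*. *Dpf3* encodes a subunit of the BAF chromatin remodelling complex with a role in heart and skeletal muscle. This desert of 409.5 kb held 12 regions, and 4 of them were in the H3K4me1 list and 0 in the H3K4me2 list. The 4 regions were 3640, 5100, 7340 and 4420 bp wide and began 293, 300.04, 312 and 341 kb from *Dpf3*. They were nearer to *Dcaf4*, ending 113, 104, 90.3 and 64.0 kb from it. The widest, chr12:84763806-84771145, was the widest desert region in the H3K4me1 list, and no motif was matched in its central bases. The TSS of *Dcaf4* lay in a region with decreased H3K4me2 and that of *Dpf3* in a marked region in neither list.

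A further set of deserts held 3 listed regions. Between *Kif26a* and *A730018C14Rik*, 3 of 18 regions were in the H3K4me1 list, at 27.4, 39.4 and 161 kb from *Kif26a*. Between *Tssc1* and *Myt1l*, the latter a factor of neurons, 2 of 22 were in the H3K4me1 list and lay next to each other, at chr12:29821126-29822705 and chr12:29825526-29826805. A region there, 500.5 kb from *Tssc1*, was in the H3K4me2 list. Between *Pabpc6* and *Qk*, which encodes an RNA-binding protein that controls splicing, 2 of 35 were in the H3K4me1 list and 1, of 4000 bp, was in the H3K4me2 list.

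Deserts with 2 listed regions included *Otos* to *Gpc1* and *4930564D02Rik* to *Kcnd3*, each with 2 of 10 in the H3K4me1 list. *Kcnd3* encodes a potassium channel of the transient outward current in cardiomyocytes, and the nearer of its listed regions ended 84.2 kb from the gene. In *G930045G22Rik* to *Gm9953*, 2 of 36 regions were in the H3K4me2 list, of 7200 and 1660 bp. *Cntnap2* to *Cul1* had 1 of 8 in each list.

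**Figure D5:**
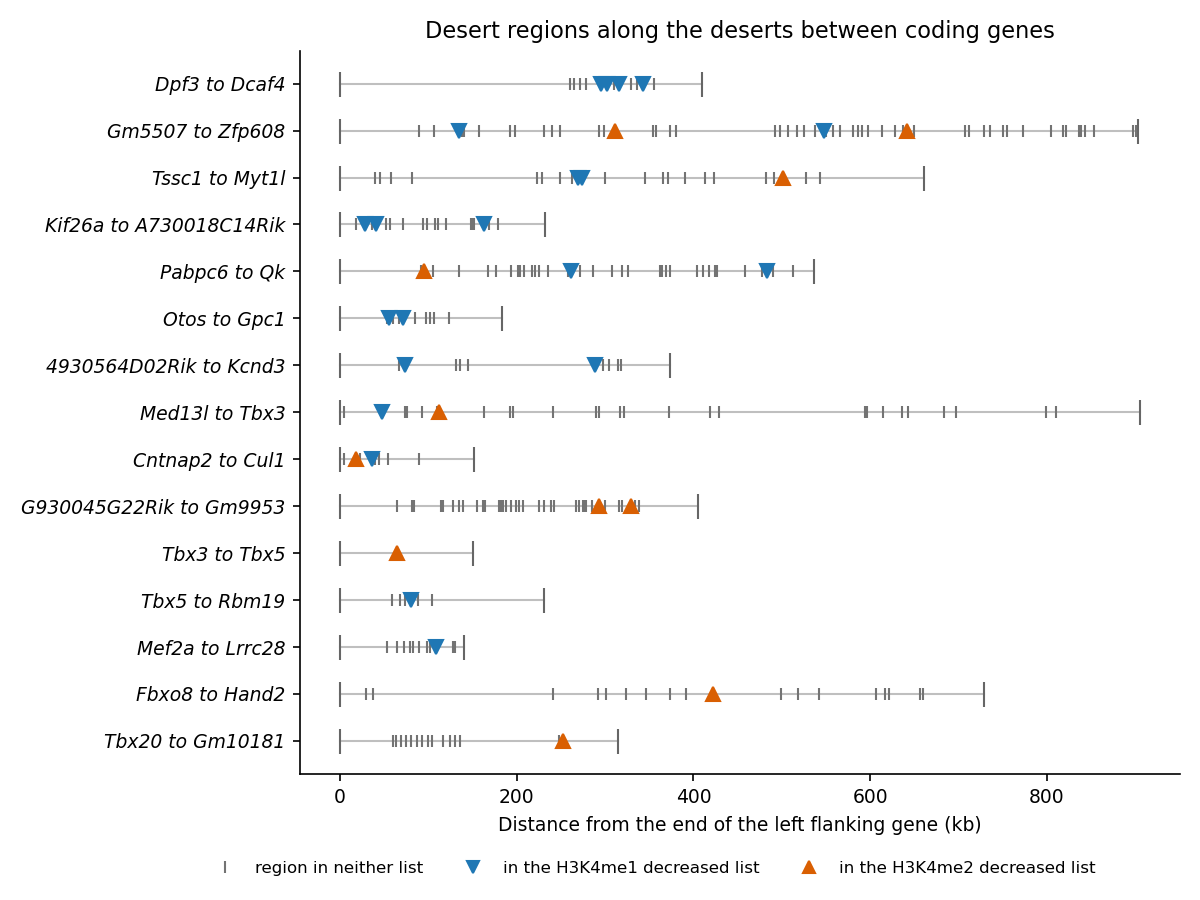
Desert regions along the 10 deserts with the most list entries and the deserts flanked by a cardiac transcription factor gene with a listed region, by distance from the edge of the left flanking gene (x axis, kb), each row running to the right flanking gene. The 4 H3K4me1-list regions between *Dpf3* and *Dcaf4* begin 293 to 341 kb from *Dpf3*, and the sole region between *Tbx3* and *Tbx5* is in the H3K4me2 list.

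Deserts beside cardiac transcription factor genes were listed at shares whose intervals included those of all deserts. Of 1711 deserts, 46 were flanked by a gene of this list, and they held 501 regions, with a median of 9 per desert against 3 over all deserts. These deserts were also longer, with a median of 508 kb against 272 kb. Of the 501, 3 (0.599%, 0.204% to 1.75%) were in the H3K4me1 list and 4 (0.798%, 0.311% to 2.03%) in the H3K4me2 list, in 6 deserts, against 1.09% and 1.05% of all desert regions. *Med13l* to *Tbx3* had 27 regions with 1 in each list, both on the *Med13l* side at 46.8 and 111 kb from that gene. *Tbx5* to *Rbm19* had 1 of 6 in the H3K4me1 list, 79.4 kb from *Tbx5*. *Mef2a* to *Lrrc28* had 1 of 11 in the H3K4me1 list, of 4840 bp. *Mef2a* encodes a MADS-box factor of muscle genes. *Fbxo8* to *Hand2* had 1 of 18 in the H3K4me2 list, 306 kb from *Hand2*, a bHLH factor needed for ventricle growth. *Tbx20* to *Gm10181* had 1 of 15 in the H3K4me2 list.

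The other lists of flanking genes gave shares on either side of those of all desert regions. Deserts beside developmental transcription factors of other tissues held 1259 regions, 15 in the H3K4me1 list (1.19%) and 8 in the H3K4me2 list (0.635%). Deserts beside signalling genes held 1047 regions, 6 and 10 of them listed (0.573% and 0.955%). Beside neuronal adhesion and synapse genes 6 and 7 of 471 were listed (1.27% and 1.49%), beside heart muscle genes 2 and 1 of 127 (1.57% and 0.787%), and beside extracellular matrix and cushion genes 1 and 3 of 313 (0.319% and 0.958%). Deserts with no listed flank held 6120 regions, 74 (1.21%) and 69 (1.13%) of them in the lists. A desert may count in more than 1 list.

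Promoters flanking the deserts were in the H3K4me2 list at similar shares, whether or not the desert held a listed region. The share over all coding promoters is not given, so no difference from promoters in general can be read here. Of 3415 flanking coding genes, counted once per desert, 2753 had a TSS inside a merged region. That TSS lay in a region with decreased H3K4me2 in 36.2% of cases (54 of 149) beside deserts with an H3K4me1-list region, in 35.8% (58 of 162) beside deserts with an H3K4me2-list region and in 31.2% (766 of 2459) beside deserts with neither. The intervals overlapped. For H3K4me1 the counts were 5 of 149 (3.36%, 1.44% to 7.61%), 0 of 162 (up to 2.32%) and 24 of 2459 (0.976%, 0.657% to 1.45%).

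Counting desert regions only, those of the H3K4me1 list lay near each other more often than those of the H3K4me2 list. Within 50 kb, 16 of 106 regions in the H3K4me1 list (15.1%, 9.51% to 23.1%) had another desert region of that list, against 2 of 102 in the H3K4me2 list (1.96%, 0.539% to 6.87%). When decreased regions of any genomic class were counted, 23.6% of the H3K4me1-list regions had another within 50 kb, against 10.9% of desert regions outside the list. For H3K4me2 the shares were 15.7% and 12.8%. With any genomic class counted, the intervals of both lists overlapped (16.5% to 32.5% and 9.89% to 24.0%). Within 100 kb the share was 32.1% for H3K4me1, against 18.9% of desert regions outside that list. For H3K4me2 it was 34.3%, against 30.7% outside that list. A desert region of either kind, listed or not, lay within 50 kb of 84.9% of desert regions. The 4 regions between *Dpf3* and *Dcaf4* were among the 16.

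Some listed regions lay far from any annotated TSS. The median distance was nevertheless 85.8 kb in the H3K4me1 list and 84.9 kb in the H3K4me2 list, against 101 kb in neither. The H3K4me1-list region farthest from a TSS, at chr7:122562726-122565545, was 403 kb from the start of *Sox6*, which encodes an SRY-related factor of muscle and cartilage, although only 49.3 kb from the edge of that gene. The next in order were 377 kb away, between *Nox3* and *Arid1b*, 354 kb away, again beside *Sox6* and 0.513 kb from that gene, 259.7 kb away, between *Pabpc6* and *Qk*, and 259 kb away, between *Cmpk2* and *Gm9866*. The farthest H3K4me2-list region, chr6:16265986-16268445, was 580.0 kb from a TSS, between *Mdfic* and *Tcfec*. It was followed by regions in *Gm10295* to *Mctp2* (353 kb), *Med13l* to *Tbx3* (316 kb), *Fbxo8* to *Hand2* (306 kb) and *Kcnh7* to *Fign* (278 kb).

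The widest listed regions had similar sizes in both lists. The 7340 bp region between *Dpf3* and *Dcaf4* was the widest desert region in the H3K4me1 list. Next were regions of 7240 bp (*Nkx1-1* to *Fam53a*), 6140 bp (*Mtap1b* to *Cartpt*), 5440 bp (*Rras2* to *Copb1*) and 5380 bp (*Fam86* to *Rbfox1*). The H3K4me2 list held regions of 7300 bp (*Rapgef2* to *Gm17359*), 7200 bp (*G930045G22Rik* to *Gm9953*), 6400 bp (*Olfm3* to *S1pr1*), 6300 bp (*1110067D22Rik* to *Peli1*) and 5800 bp (*Gm4889* to *Dusp4*). *S1pr1* encodes a sphingosine-1-phosphate receptor of vessels. RefSeq starts lay inside the regions in *Fam86* to *Rbfox1* (*Gm41414*), *Rapgef2* to *Gm17359* (*6430573P05Rik*), *Olfm3* to *S1pr1* (*Gm40124*) and *1110067D22Rik* to *Peli1* (*Gm32293*).

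Motif letters were counted on both strands in the central 300 bases. GATA factors were represented by AGATAA, T-box factors by the letters AGGTGTG and the homeobox factor NKX2-5 by TNAAGTG. MEF2 factors were represented by CTAAAAATA, TEAD factors of the Hippo pathway by GGAATGT and MEIS homeobox factors by TGACAG. The AP-1 motif was TGANTCA, and the E-box bound by HAND and TWIST factors was CATCTG. No motif contained another, though matches to different motifs could overlap. The GATA letters were in 22.8% of desert regions and in 18.6% of all merged regions of the same width range, and the E-box in 23.8% and 22.1%. The other shares were 5.33% and 6.02% for T-box, 17.6% and 16.3% for NKX2-5, 1.39% and 1.04% for MEF2, 5.65% and 5.04% for TEAD, 23.7% and 22.9% for MEIS, and 10.5% and 9.20% for AP-1. Desert regions also had less G+C than all merged regions of that width (mean 44.9% against 47.0%), and its part in these shares was not tested.

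Between the lists, MEIS letters differed most. They were in 33 of 106 H3K4me1-list regions (31.1%, 23.1% to 40.5%), 17 of 102 H3K4me2-list regions (16.7%, 10.7% to 25.1%) and 23.7% of those in neither, and the intervals of both lists overlapped. GATA letters were in 16.0% and 18.6% of the H3K4me1 and H3K4me2 lists, against 22.9% in neither, with overlapping intervals. In the sequences shown, the *Tssc1* to *Myt1l* region held 4 matches, for GATA and MEIS once each and for the E-box at positions 13 and 253. The *Gm6569* region held 1 T-box match, the *Pabpc6* region 1 GATA match and the other 3 none.

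By chromosome, the H3K4me1 share of desert regions was highest on chromosomes 7 (13 of 486, 2.67%, 1.57% to 4.52%) and 12 (14 of 644, 2.17%, 1.30% to 3.62%), the latter holding the *Dpf3*, *Kif26a* and *Tssc1* deserts. It was 0.317% on chromosome 10 (2 of 630, 0.0871% to 1.15%). For H3K4me2 the highest share was 2.86% on chromosome 19 (5 of 175, 1.23% to 6.51%). Chromosome X had 46 desert regions and Y had 15, none of them listed, with intervals reaching 7.71% and 20.4%. Shares of all merged regions by chromosome are not given, so no trait particular to deserts can be read from these values.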

How the data were processed

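Hearts were pooled and immunoprecipitated per genotype and mark, and per the labels reads were processed with CASAVA 1.8.2, FastQC, Bowtie2, Bowtie and SAMtools and aligned to mm9. The authors called peaks, merged them over replicates and marks, and deposited the merged list and the lists with decreased H3K4me1 (2730 regions) and H3K4me2 (6699 regions) at a false discovery rate threshold. The deposited H3K4me2 list does not have the length stated in the study's text, for a reason not given in the sources used here, and the deposited list was used. The peak caller and the test are not given in the sources used here. The deposited values are region starts and ends on a grid of 20 bp, without counts, signal or *P* values. A call needs enough reads, so unlisted regions cannot be taken as unaltered.

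Every listed region had an identical merged region. Positions were classed against GENCODE vM1 with pandas 2.3.3 and numpy 2.4.6, Wilson intervals were computed with scipy 1.17.1, and the classification was tested on simulated data. RefSeq starts came from 32851 promoter sequences (GRCm38.p6), of which 31794 were found once in NCBIM37. Coordinates are 1-based.

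Deserts were named by their flanking protein-coding genes: the 10 with the most regions, the 10 with the most list entries, those beside a cardiac transcription factor gene with a listed region, the regions in both lists, and the 5 widest and 5 farthest of each list. The regions, the 6 gene lists and the motifs were chosen with earlier results of these data known. CpG-rich and RefSeq comparisons, the chromosomes named and the *Tbx3* to *Tbx5* and *Gm34150* sequences were chosen after the values were seen. Alternatives were other distances and widths, coding genes only, overlap of at least 1 bp, weighting by length and other spacings.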

Additional observations from a re-analysis of the deposited data

How the results depend on the processing

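The share of desert regions in the H3K4me1 and H3K4me2 lists followed the definition of a desert. It was 1.34% and 1.27% with a TSS limit of 25 kb, 0.898% and 0.837% with 100 kb, 0.662% and 0.616% for widths of at least 500 bp without an upper limit, 1.94% and 1.56% for 2000 to under 8000 bp, and 1.49% and 1.33% weighted by length. With RefSeq starts over 50 kb away, chosen after seeing the data, the H3K4me1 share was 0.835% and the H3K4me2 share stayed within its interval. Leaving out regions within 5 kb of a gene body, also chosen after seeing the data, gave 1.07% and 1.04%. The number of regions in both lists was 5 at 25 kb, 1 at 100 kb, 4 with protein-coding genes only, 5 at 500 bp or more and 1 at 2000 to under 8000 bp. No H3K4me2-list region (0%) had another within 20 kb. Deserts with a listed region made up 8.60% when bounded by genes of any type and 8.11% with a limit of 100 kb. Of 30 alternatives for 6 results, 11 stayed within the interval or within 1.5 times the count. The 11 include those with overlap of at least 1 bp. They could not move, since every listed region had an identical merged region. Replicates could not be left out in turn, since the lists hold no value per pool. No paired analysis was possible because the lists pool the replicates and no result comes from a test.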
